A study of Homo sapiens with 10 samples.

Results

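Neurospheres exposed to a phthalate mixture were compared with the average of neurospheres exposed to 3 single phthalates. The comparison set the 2 libraries of the mixture group, labelled Mix, against the 6 libraries of DEP, DProP and DPP (2 each), 8 of the 10 libraries of the series. The 2 remaining libraries are the vehicle control. They took part in the scaling and in the estimate of spread, but not in the contrast. Each compound had the same weight: 1 mean was fitted per group on the log2 scale, and the average of the 3 single-compound means was subtracted from the mean of Mix. All 19465 genes with enough counts were tested.

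All groups were neurospheres grown from ReNcell VM cells (an immortalised line of human neural progenitors) and kept for 6 days in differentiation medium, and each library pooled the RNA of 6 neurospheres. DEP, which is diethyl phthalate, DProP, DPP and Mix each carry the label 100 µM, and the vehicle was 0.1% DMSO. The labels used here do not spell out DProP or DPP, do not give the compounds or proportions in Mix, and do not say whether 100 µM is the total or the level of each compound in it. The study asks whether short-chain di-n-alkyl phthalates act on neural development, alone and together. No label states that 2 libraries of one group were grown apart, and the p-values therefore cover only the spread among libraries, which may be technical.

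Neural progenitors leave the cell cycle as proneural transcription factors switch on neuronal genes, while Notch, Hedgehog and growth factor signals keep other cells as progenitors or lead them to glia. Neurons then extend processes built on microtubules and neurofilaments, and insert channels and synaptic proteins. Phthalates are diesters used as plasticisers and in personal care products. Cells under chemical stress commonly turn on ATF4, NFE2L2 and p53 target genes, which serve amino acid supply, redox defence and growth arrest.

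Most proneural factors (13 of 18) and neuron markers (20 of 34) were higher in Mix than in the average of the single compounds, and 15 of 26 antioxidant genes were lower. In the glycolysis, growth factor feedback, cell cycle and integrated stress response lists 14 of 33, 11 of 26, 11 of 44 and 8 of 27 members were lower, and the other members of these lists were higher or did not pass the test. In edgeR's quasi-likelihood test, with Benjamini-Hochberg adjustment over all tested genes, 2741 genes (14.1%) passed an adjusted p of 0.05. Of these, 1829 (9.40% of tested genes) were higher in Mix and 912 (4.69%) were lower. Most differences were small, with a median size of 0.36 on the log2 scale among genes past the threshold, and the median difference over all tested genes was -0.0022. A difference of at least 2-fold was found for 297 of them, 202 higher and 95 lower, of which 173 had a mean of at least 1 CPM (the count scaled to library size) over the 10 libraries.

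**Figure D1:**
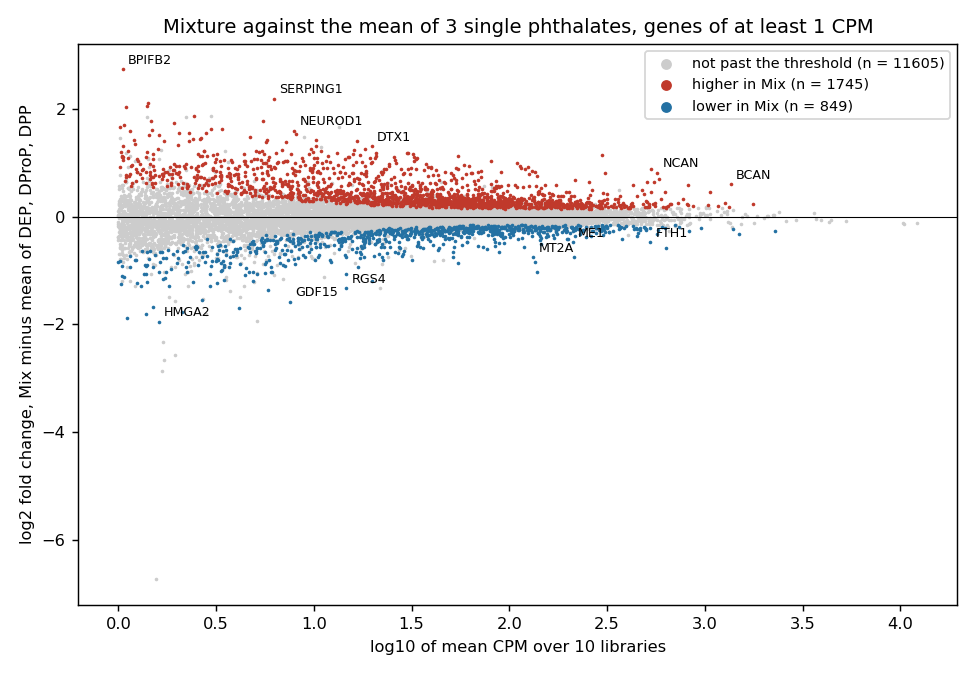
Difference between Mix and the average of DEP, DProP and DPP for the 14199 tested genes with a mean of at least 1 CPM, as log2 fold change (vertical axis) against the log10 of the mean CPM over 10 libraries (horizontal axis). Each point is a gene, and 1745 genes in red were higher and 849 in blue were lower in Mix past an adjusted p of 0.05.

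Both Mix libraries were above all 6 single-compound libraries for 1656 of the 1829 higher genes, and below all 6 for 793 of the 912 lower genes. Genes chosen for a difference from the average will often lie outside the 6, so these counts only describe the called genes and are no test against each compound. Over all tested genes, called or not, 26.3% had both Mix libraries outside the 6, 14.8% above and 11.5% below. With 2 libraries against 6 an exact permutation test of a single gene cannot go below p = 0.0714 (two-sided, 28 splits), so each call rests on the spread pooled over the 5 groups in the edgeR fit.

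The 3 single compounds were not equally far from Mix. DPP was the farthest compound for 1927 of the 2741 genes (70.3%), DProP for 442 (16.1%) and DEP for 372 (13.6%). Among the genes higher in Mix the median log2 difference was 0.30 from DEP, 0.34 from DProP and 0.45 from DPP. The medians for the lower genes were -0.26, -0.32 and -0.44 in the same order. Tested 1 compound at a time in the same edgeR fit, Mix differed from DEP in 752 genes (3.86%), from DProP in 1342 (6.89%) and from DPP in 3359 (17.3%). These 3 comparisons share the Mix libraries. A test of equality of DEP, DProP and DPP was passed by 453 genes (2.33%), and 286 of the 2741 genes (10.4%) were among them, so for those the average stands for unequal levels. When the 6 single-compound libraries were given 1 common mean, which puts the differences among compounds into the spread, 1257 genes passed. With DPP left out of the average 1397 passed.

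The libraries held 57222381 to 72973100 counts. In the shares of MALAT1 and of mitochondrial RNA the treated libraries lay nearer to each other than to vehicle. MALAT1, a nuclear long non-coding RNA, took 0.3437% and 0.348% of counts in Mix and 0.3423% to 0.3937% in the single compounds. It took 1.25% and 0.9465% in vehicle. Mitochondrial RNA took 0.3544% and 0.3473% in Mix, 0.2957% to 0.3444% in the single compounds and 0.1165% and 0.1493% in vehicle. The vehicle libraries therefore stood apart, and their values are given below as a reference level with no test. Mix and the single compounds were not alike across RNA classes. In the largest classes the median log2 difference from the average was 0.02 for protein-coding genes, -0.14 for long non-coding RNAs and -0.16 for pseudogenes. The cause was not tested. The progenitor markers summed to 9099 to 9301 CPM in Mix and 8856 to 9478 CPM in the single compounds, and the astrocyte markers to 7701 to 8170 and 7145 to 7861 CPM. Of 13 microglial markers, 6 had no count in any library (AIF1, TREM2, TYROBP, PTPRC, C1QA and C1QB), and PECAM1 and ERG among the endothelial markers also had none. In bulk RNA, fewer cells of a type and less RNA per cell cannot be told apart.

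Proneural transcription factors, the regulators that commit progenitors to neurons, had the largest share of higher members among the 51 gene lists examined. Of 18 tested members 13 were higher in Mix and 0 lower, with a median log2 difference of 0.76. NEUROD1 (chr2:181668295-181680517, GRCh38), a factor that drives neuronal differentiation, measured 13.5 and 12.6 CPM in Mix, 5.26 and 6.52 in DEP, 5.38 and 4.26 in DProP, 3.097 and 2.604 in DPP and 14.1 and 11.8 in vehicle. Both Mix libraries were above every single-compound library, at about the vehicle level, and DPP was lowest. The log2 fold change was 1.59 ± 0.12 (SE), with an edgeR adjusted p of 1.67e-05. Mix exceeded each compound on its own, by 1.15 over DEP, 1.44 over DProP and 2.19 over DPP on the log2 scale (edgeR adjusted p = 0.0033, 0.000616 and 2.04e-05).

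Other proneural genes were also higher. ST18, a zinc finger factor of the MYT1 family, measured 49.4 and 50.1 CPM in Mix, 34.5 and 40.7 in DEP, 30.7 and 31.3 in DProP, 18.1 and 13.2 in DPP and 61.5 and 54.5 in vehicle. The Mix libraries stood above all 6 others, DEP came next and DPP was lowest, and the groups did not overlap. Its log2 fold change was 0.92 ± 0.10 (SE, edgeR adjusted p = 0.000267), but the distance to DEP alone, 0.40, did not pass the test (adjusted p = 0.111). NHLH2, a basic helix-loop-helix factor of young neurons, measured 18.01 and 15.7 CPM in Mix, 13.4 and 13.5 in DEP, 10.97 and 7.896 in DProP, 5.73 and 4.72 in DPP and 22.96 and 19.4 in vehicle. INSM1, a zinc finger factor of newborn neurons, measured 38.2 and 44.9 CPM in Mix, 29.95 and 33.9 in DEP, 20.8 and 22.2 in DProP, 18.97 and 13.96 in DPP and 54.01 and 57.5 in vehicle. For both, Mix was higher than every single-compound library and lower than vehicle, and the log2 fold changes were 0.95 ± 0.12 (SE) and 0.89 ± 0.10 (SE), with edgeR adjusted p of 0.000485 and 0.000326. NEUROG1, NEUROD4, NHLH1 and MYT1, further members of this class, were higher by 1.19, 1.17, 1.13 and 1.09. Over the list, Mix lay a median 0.35 above DEP, 0.74 above DProP and 1.18 above DPP. With 1 common mean for the single compounds 5 members passed, and without Mix replicate 1 the number was 8.

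**Figure D2:**
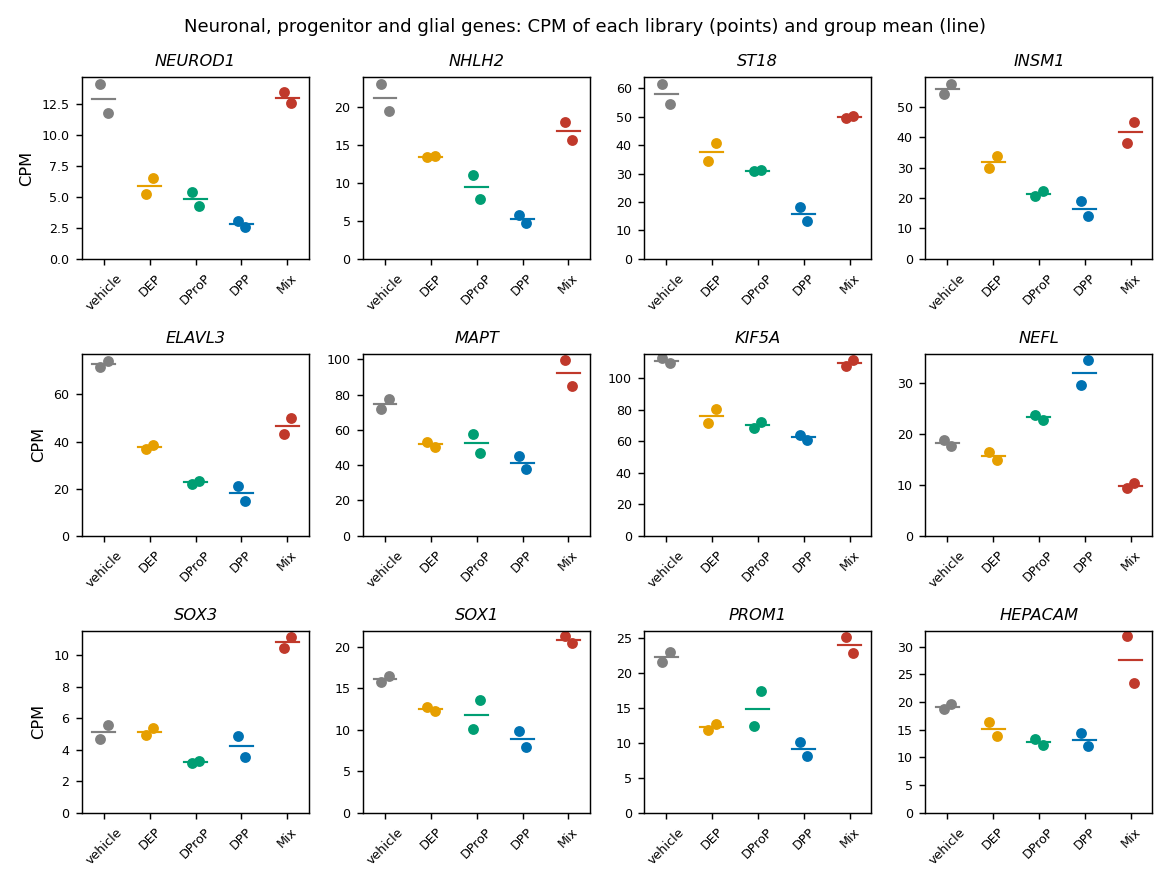
CPM of 12 neuronal, progenitor and glial genes, 1 panel per gene with its own vertical axis from 0, in the 5 groups on the horizontal axis (points are libraries, lines are means of 2). Mix lies above the 6 single-compound libraries in 11 panels and below them for NEFL.

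Markers of neurons moved with them, with 20 of 34 members higher in Mix, 1 lower and a median of 0.55. MAPT, which encodes the microtubule protein tau, measured 99.8 and 84.7 CPM in Mix, 53.2 and 50.3 in DEP, 57.9 and 46.7 in DProP, 45.1 and 37.8 in DPP and 72.1 and 77.6 in vehicle. Mix was above all other libraries including vehicle, and the 3 compounds lay close together, with no difference among them past the test (edgeR adjusted p = 0.228). The log2 fold change of MAPT was 0.94 ± 0.09 (SE, adjusted p = 0.000153). ELAVL3, a neuronal RNA-binding protein, measured 43.03 and 49.9 CPM in Mix, 37.03 and 38.4 in DEP, 21.9 and 23.5 in DProP, 20.98 and 14.9 in DPP and 71.8 and 74.2 in vehicle. Here Mix lay between DEP and vehicle, and DProP and DPP were lowest; the log2 fold change was 0.90 ± 0.10 (SE, edgeR adjusted p = 0.000316), with 0.30 against DEP alone (adjusted p = 0.231). The summed level of the 34 markers was 2815 to 2843 CPM in Mix, 2339 to 2486 in DEP, 2149 to 2158 in DProP and 1897 to 2046 in DPP, against 3247 to 3298 in vehicle. Of the 34 markers, 12 also differed among the 3 compounds. With 1 common mean for the single compounds 5 markers were higher, and without Mix replicate 2 the number was 13.

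NEFL, the light neurofilament chain, was the marker that went the other way. It measured 9.42 and 10.3 CPM in Mix, 16.4 and 14.9 in DEP, 23.7 and 22.7 in DProP, 29.6 and 34.3 in DPP and 18.7 and 17.6 in vehicle. Mix was lowest of the 5 groups and DPP highest, with no overlap, and the log2 fold change was -1.20 ± 0.09 (SE, edgeR adjusted p = 1.52e-05). The difference passed against each compound, at -0.67 from DEP, -1.24 from DProP and -1.70 from DPP (adjusted p = 0.00574, 0.000154 and 5.31e-06). INA, another neuronal intermediate filament gene, was higher in Mix by 0.60 ± 0.07 (SE, edgeR adjusted p = 0.000187).

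The neurite cytoskeleton list had 17 of 34 members higher, 1 lower (NEFL) and a median of 0.17. KIF5A, a kinesin motor that carries cargo along axons, measured 108 and 111 CPM in Mix, 71.9 and 80.2 in DEP, 68.6 and 72.2 in DProP, 63.9 and 61.02 in DPP and 113 and 109.6 in vehicle. The Mix values were close to vehicle and exceeded all 6 single-compound values, with a log2 fold change of 0.66 ± 0.05 (SE, edgeR adjusted p = 2.44e-05). Doublecortin (DCX), a microtubule protein of migrating neurons, was higher by 0.80, the neuronal tubulin TUBB3 by 0.59 and the tubulin-binding STMN2 by 0.84. BASP1, a membrane protein of growth cones, was higher by 0.95 ± 0.12 (SE). The number of higher members was 10 and 9 without Mix replicate 1 or 2, and 6 with 1 common mean for the single compounds.

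Synapse genes were higher in 16 of 48 cases and lower in 3, with a median of 0.20. The neuroligins NLGN1, NLGN2 and NLGN3, which are postsynaptic adhesion proteins, were higher by 0.42 ± 0.06 (SE), 0.39 ± 0.06 (SE) and 0.39 ± 0.05 (SE). NLGN2 measured 184 and 214 CPM in Mix, 149.8 and 153 in DEP, 151 and 149.5 in DProP, 157 and 148 in DPP and 181 and 195 in vehicle, so that the compounds hardly differed among themselves and Mix stood above them. SV2B, a synaptic vesicle protein, was higher by 0.94 ± 0.11 (SE, edgeR adjusted p = 0.000254), and the kainate receptor subunit GRIK2, the GABA receptor subunit GABBR2 and the active zone protein PCLO were lower, at -0.38, -0.24 and -0.35. Without Mix replicate 2 the number of higher synapse genes was 10, with DPP left out of the average also 10, and with 1 common mean 7.

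Ion channel genes were higher in 16 of 48 cases and lower in 4, with a median of 0.22. KCNQ3, a subunit of the M-type potassium channel, measured 111 and 85.7 CPM in Mix, 63.5 and 59.7 in DEP, 56.98 and 53.2 in DProP, 54.3 and 51.6 in DPP and 49.1 and 51.9 in vehicle. The single compounds lay at or somewhat above vehicle and both Mix libraries were above all other libraries, with a log2 fold change of 0.81 ± 0.08 (SE, edgeR adjusted p = 0.00013). CACNA1H, a T-type calcium channel, measured 103 and 116 CPM in Mix, 81.1 and 80.8 in DEP, 74.1 and 75.2 in DProP, 73.7 and 71.5 in DPP and 84.4 and 91.2 in vehicle and was higher by 0.53 ± 0.05 (SE). CACNG4, which regulates AMPA receptors, was higher by 0.83 ± 0.07 (SE), and KCNJ2, an inward rectifier potassium channel, was lower (-0.70 ± 0.07 (SE)). The count of 16 became 8 without Mix replicate 1 and 10 without Mix replicate 2. Axon guidance genes were mixed, with 12 higher and 7 lower among 45 and a median of 0.10: the SLIT receptors ROBO2 and ROBO3 were higher by 0.43 and 0.68, and the semaphorin coreceptors NRP1 and NRP2 were lower, at -0.43 and -0.26. Their higher count ranged down to 5 and their lower count to 1 when a Mix library was left out.

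Progenitor markers were higher in 9 of 23 cases and lower in 1, with a median of 0.16. SOX3, a SOXB1 factor of neural progenitors, measured 10.5 and 11.1 CPM in Mix, 4.93 and 5.38 in DEP, 3.16 and 3.25 in DProP, 4.87 and 3.54 in DPP and 4.66 and 5.55 in vehicle. Mix was about 2 times the vehicle level and no single-compound library came near it; the log2 fold change was 1.39 ± 0.12 (SE, edgeR adjusted p = 4.29e-05). SOX1, a factor of the same family, measured 21.2 and 20.5 CPM in Mix, 12.8 and 12.3 in DEP, 10.04 and 13.5 in DProP, 9.84 and 7.904 in DPP and 15.8 and 16.5 in vehicle and was higher by 0.93 ± 0.11 (SE, adjusted p = 0.000254). PROM1, which encodes the surface protein CD133, was higher by 1.01 ± 0.12 (SE). N-cadherin (CDH2), the adhesion protein of neuroepithelial junctions, was the lower member: it measured 454 and 457 CPM in Mix, 536 and 513 in DEP, 565 and 571 in DProP, 602 and 644 in DPP and 672 and 662 in vehicle, Mix being the lowest group, with a log2 fold change of -0.33 ± 0.05 (SE, edgeR adjusted p = 0.000818). The number of higher progenitor markers was 5 without either Mix library.

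Astrocyte markers split, with 8 higher and 5 lower among 21 and a median of 0.15. HEPACAM, an adhesion protein of astrocyte processes, measured 31.8 and 23.4 CPM in Mix, 16.3 and 13.9 in DEP, 13.3 and 12.1 in DProP, 14.4 and 12.1 in DPP and 18.6 and 19.6 in vehicle and was higher by 1.02 ± 0.11 (SE, edgeR adjusted p = 0.000216). The glutamate transporter SLC1A3 measured 556 and 537 CPM in Mix, 367 and 406 in DEP, 371 and 440.3 in DProP, 353 and 379 in DPP and 669 and 666 in vehicle. Mix lay between the single compounds and vehicle, and the log2 fold change was 0.50 ± 0.06 (SE). SLC1A2, the other main glial glutamate transporter, and the water channel AQP4 were higher by 1.19 and 1.15. The lower members were ID3 (-1.05 ± 0.19 (SE)), S100A10 (-0.42 ± 0.07 (SE)), SPARCL1 (-0.28), GLUL (-0.25) and CD44 (-0.21), of which ID3 is a BMP target, GLUL makes glutamine and CD44 binds hyaluronan. Without either Mix library the lower count was 2.

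Among 13 tested oligodendrocyte lineage markers, 4 were higher and 0 lower, with a median of 0.49. PDGFRA, the receptor that marks oligodendrocyte precursors, measured 2.61 and 2.42 CPM in Mix, 0.837 and 0.948 in DEP, 1.06 and 1.79 in DProP, 1.31 and 1.35 in DPP and 1.49 and 1.22 in vehicle; it was higher by 1.07 ± 0.19 (SE, edgeR adjusted p = 0.0037). SOX8, a transcription factor of the oligodendrocyte lineage, measured 43.1 and 50.8 CPM in Mix, 43.1 and 43.8 in DEP, 34.5 and 35.9 in DProP, 31.9 and 27.8 in DPP and 64.1 and 67.8 in vehicle and was higher by 0.39 ± 0.07 (SE, adjusted p = 0.00384). CSPG4, the NG2 proteoglycan of precursors and pericytes, measured 7.27 and 7.62 CPM in Mix, 4.17 and 3.37 in DEP, 7.05 and 7.295 in DProP, 5.26 and 5.18 in DPP and 6.26 and 6.07 in vehicle and was higher by 0.52 ± 0.10 (SE, adjusted p = 0.00731). Mix overlapped DEP in SOX8 and DProP in CSPG4, and SOX8 was highest in vehicle. The markers MAG and NKX2-2 had no count in any library. The count of 4 fell to 2 without either Mix library and to 1 with 1 common mean for the single compounds. Smooth muscle and mesenchymal markers were higher in 4 and lower in 1 of 18, while their summed level was 293 to 325 CPM in Mix and 305 to 325 CPM in the single compounds, and DCN and POSTN had no count.

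Notch signalling, which holds progenitors back from neuronal fate, had 8 of 25 members higher and 3 lower, with a median of 0.15. DTX1, an E3 ligase that acts on Notch and is itself a Notch target, measured 32.8 and 30.4 CPM in Mix, 17.2 and 18.04 in DEP, 13.3 and 10.1 in DProP, 12.04 and 8.36 in DPP and 26.9 and 28.9 in vehicle. Mix was above every other library and DPP and DProP were lowest, and the log2 fold change was 1.30 ± 0.12 (SE, edgeR adjusted p = 0.00013). MFNG, a glycosyltransferase that modifies Notch, was higher by 1.04 ± 0.14 (SE), and the effector HES1 by 0.26 ± 0.05 (SE). The ligands DLL1 and JAG2 and the effector HEY1 were lower, at -0.18, -0.55 and -0.41, while the ligand DLL3 was higher by 0.70. The higher count was 5 without DEP replicate 1, DProP replicate 2 or DPP replicate 2 and with protein-coding genes alone, 4 without Mix replicate 1, and 2 without Mix replicate 2.

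Hedgehog signalling genes were higher in 5 of 14 cases and lower in 0, with a median of 0.13. HHIP, a membrane protein that binds and limits Hedgehog ligands, measured 17.4 and 14.8 CPM in Mix, 4.97 and 5.96 in DEP, 5.53 and 6.16 in DProP, 5.34 and 5.300 in DPP and 8.999 and 7.01 in vehicle. The 3 compounds overlapped and did not differ past the test (edgeR adjusted p = 0.86), and Mix was far above them and above vehicle, with a log2 fold change of 1.54 ± 0.11 (SE, adjusted p = 1.52e-05). The receptor component SMO, the transcription factors GLI2 and GLI3 and their inhibitor SUFU differed by 0.28, 0.23, 0.25 and 0.29; without Mix replicate 2 the higher count of this list was 1.

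Wnt genes were called in both directions, with 5 higher and 3 lower among 31. The secreted inhibitor DKK1 measured 0.996 and 0.637 CPM in Mix, 1.66 and 1.58 in DEP, 3.46 and 2.65 in DProP, 3.54 and 5.56 in DPP and 0.642 and 0.486 in vehicle. Levels in Mix were near vehicle and below every single compound, DPP being highest, and the log2 fold change was -1.78 ± 0.25 (SE, edgeR adjusted p = 0.000834). SFRP1, another secreted Wnt antagonist, was higher: it measured 49.4 and 45.6 CPM in Mix, 30.98 and 28.8 in DEP, 30.3 and 31.8 in DProP, 31.99 and 29.3 in DPP and 30.6 and 31.3 in vehicle, so the single compounds and vehicle overlapped and Mix stood above them, at 0.64 ± 0.06 (SE, adjusted p = 7.2e-05). The Wnt feedback inhibitors APCDD1 and NKD1 were higher by 0.58 ± 0.06 (SE) and 0.83 ± 0.11 (SE). Genes of retinoid, thyroid and glucocorticoid response were higher in 9 of 23 cases and lower in 1. CRABP1, which binds retinoic acid, was higher by 1.00 ± 0.15 (SE), although in CRABP1 Mix and DEP overlapped (124 and 151 CPM against 97.1 and 127). SGK1, a kinase induced by glucocorticoids and by cell stress, was the lower member (-1.03 ± 0.16 (SE)). Without Mix replicate 1 the higher count was 3.

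Migration, adhesion and matrix genes moved in both directions, with 15 of 47 higher, 9 lower and a median of -0.04, whose sign changed under some alternatives. The higher members included RELN, the glycoprotein that guides migrating neurons, which measured 14.2 and 16.2 CPM in Mix, 9.41 and 9.65 in DEP, 8.64 and 7.94 in DProP, 4.83 and 4.3 in DPP and 14.9 and 13.2 in vehicle. Mix was at the vehicle level and above all 6 single-compound libraries, with a log2 fold change of 1.09 ± 0.09 (SE, edgeR adjusted p = 2.61e-05). RELN also differed among the single compounds (edgeR adjusted p = 0.0023), and its call was lost with 1 common mean for them. NCAN and BCAN, brain-specific chondroitin sulphate proteoglycans, were higher by 0.81 ± 0.08 (SE) and 0.60 ± 0.07 (SE). BCAN measured 1505 and 1569 CPM in Mix, 1167 and 1159 in DEP, 1039 and 989.6 in DProP, 977 and 778 in DPP and 2106 and 2262 in vehicle, so Mix lay between the compounds and vehicle. The lower members included the integrin chains ITGB1, ITGA3, ITGB5 and ITGB3, at -0.27, -0.38, -0.21 and -0.67, and the chemokine CXCL12 at -0.64.

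Some of the largest increases were in genes outside these groups. SERPING1, the C1 inhibitor of the complement cascade, measured 15.03 and 14.02 CPM in Mix, 3.36 and 3.905 in DEP, 2.56 and 3.72 in DProP, 3.46 and 2.18 in DPP and 7.76 and 6.700 in vehicle. Mix was about 2 times the vehicle level and above every single-compound library, and the compounds did not differ past the test (edgeR adjusted p = 0.63); the log2 fold change was 2.19 ± 0.16 (SE, adjusted p = 1.67e-05). BPIFB2, of the bactericidal/permeability-increasing protein family, measured 2.76 and 2.41 CPM in Mix, 0.349 and 0.453 in DEP, 0.439 and 0.424 in DProP, 0.237 and 0.439 in DPP and 1.58 and 1.42 in vehicle, the largest increase among the genes with at least 1 CPM (2.73 ± 0.21 (SE), adjusted p = 1.84e-05). SULF1, which removes sulphate from heparan sulphate, was higher by 2.1 ± 0.18 (SE) at 3.398 and 3.11 CPM in Mix. ZNF536, a zinc finger factor of the nervous system, was higher by 1.63 ± 0.15 (SE), and ROR2, a Wnt5a receptor, by 1.77 ± 0.32 (SE). For ROR2 the call was not made when either Mix library was left out.

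Genes of the ATF4 and integrated stress response were lower in 8 of 27 cases and higher in 2, with a median of -0.13. The median distance was 0.02 from DEP, -0.23 from DProP and -0.22 from DPP, so the list as a whole was not lower than DEP. Both Mix libraries were below all 6 single-compound libraries for 4 of the 27 members, against 11.5% of all tested genes. GDF15 (chr19:18386158-18389176, GRCh38), a cytokine secreted by stressed cells, measured 2.62 and 3.78 CPM in Mix, 5.55 and 5.02 in DEP, 9.04 and 8.25 in DProP, 15.9 and 22.00 in DPP and 2.08 and 1.46 in vehicle. The compounds stood in the order DEP, DProP, DPP without overlap, and both Mix libraries were below all 6 while remaining above vehicle. The log2 fold change was -1.58 ± 0.19 (SE, edgeR adjusted p = 0.000338), with -0.73 from DEP, -1.44 from DProP and -2.57 from DPP, of which the first did not pass (adjusted p = 0.0864). MTHFD2, a mitochondrial folate enzyme, measured 13.1 and 12.4 CPM in Mix, 14.6 and 14.9 in DEP, 25.5 and 24.8 in DProP, 23.1 and 30.1 in DPP and 11.3 and 11.6 in vehicle, with a log2 fold change of -0.75 ± 0.10 (SE, edgeR adjusted p = 0.000495). The asparagine synthetase gene ASNS and the transcription factor DDIT3 were lower, at -0.40 and -0.43; PHGDH of serine synthesis and the reelin receptor VLDLR were the higher members (0.28 and 0.47). The count of 8 became 5 without DEP replicate 1, DProP replicate 1, DPP replicate 2 or Mix replicate 1, 3 with DPP left out of the average and 1 with 1 common mean for the single compounds.

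**Figure D3:**
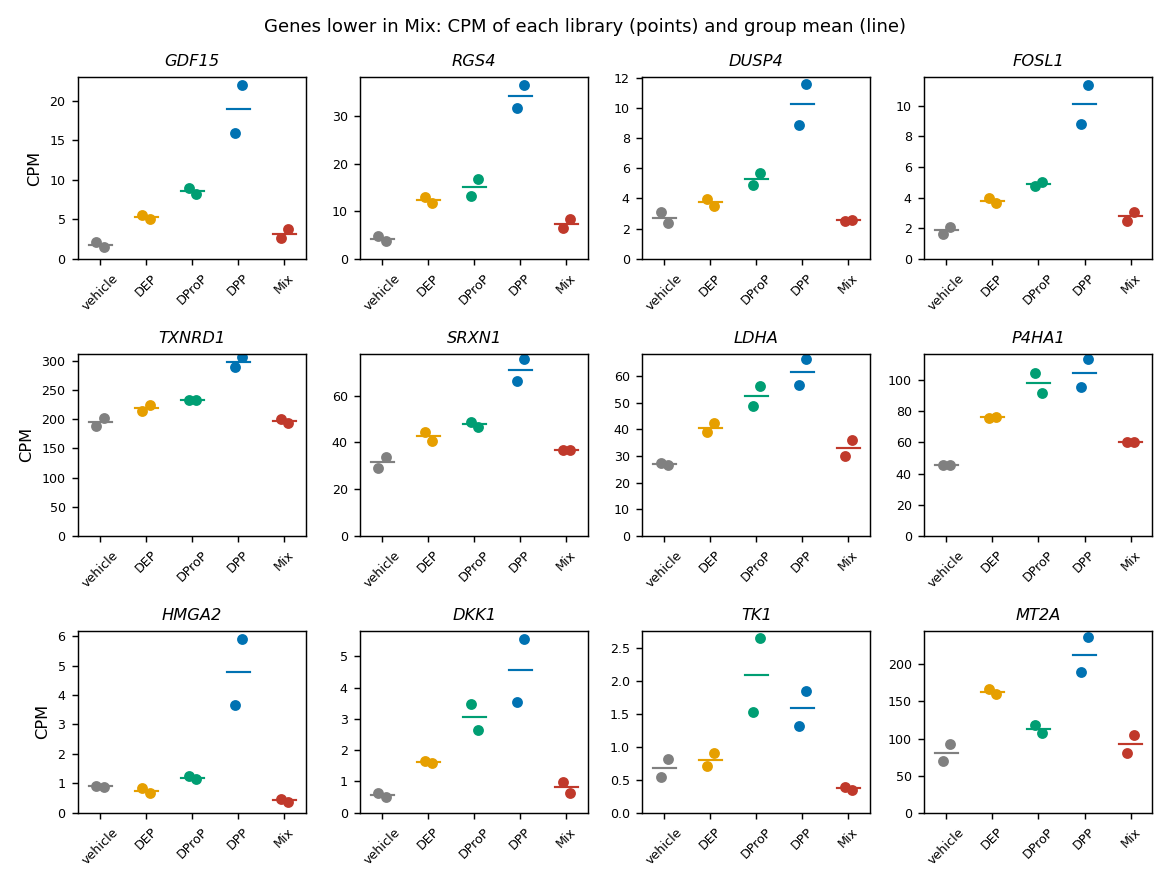
CPM of 12 genes lower in Mix, 1 panel per gene with its own vertical axis from 0, in the 5 groups on the horizontal axis (points are libraries, lines are means of 2). Mix lies below the 6 single-compound libraries in every panel, and DPP is highest in 11 of the 12, TK1 being highest in DProP.

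Growth factor and MAPK feedback genes were lower in 11 of 26 cases and higher in 3, with a median of -0.24. RGS4, a regulator of G protein signalling named here for its large decrease, measured 6.400 and 8.41 CPM in Mix, 12.9 and 11.9 in DEP, 13.3 and 16.9 in DProP, 31.8 and 36.6 in DPP and 4.805 and 3.71 in vehicle. DUSP4, a phosphatase that is switched on by ERK and switches it off, measured 2.51 and 2.597 CPM in Mix, 3.98 and 3.49 in DEP, 4.86 and 5.697 in DProP, 8.87 and 11.6 in DPP and 3.099 and 2.36 in vehicle. In both genes DPP was highest and Mix was below all single-compound libraries, near vehicle for DUSP4; the log2 fold changes were -1.33 ± 0.14 (SE) and -1.20 ± 0.16 (SE, edgeR adjusted p = 0.000215 and 0.000537). HBEGF, an EGF receptor ligand, measured 4.68 and 5.003 CPM in Mix, 7.56 and 6.18 in DEP, 6.04 and 5.77 in DProP, 18.01 and 16.6 in DPP and 5.68 and 4.52 in vehicle: DPP stood alone, and with DPP left out of the average the call was not made. EGFR, the receptor itself, was higher in Mix, at 1125 and 1011 CPM in Mix, 773 and 777 in DEP, 736 and 674 in DProP, 679 and 629 in DPP and 873 and 879 in vehicle, with a log2 fold change of 0.59 ± 0.05 (SE, edgeR adjusted p = 5.55e-05). Cyclin D1 (CCND1), which ERK signalling induces, was lower (-0.65 ± 0.09 (SE)), with Mix and DEP overlapping (34.1 and 40.4 CPM against 41.4 and 40.4). The count of 11 became 6 with DPP left out, 4 without Mix replicate 1 and 2 with 1 common mean.

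Immediate early genes were lower in 9 of 31 cases, with SRF and NPAS4 higher and a median of -0.17. The Mix libraries were unlike for this list. Relative to each gene's mean over the 10 libraries, its median level was -0.29 in Mix replicate 1 and 0.004 in Mix replicate 2 (log2). It was -0.04 and -0.10 in DEP, 0.006 and 0.014 in DProP and 0.28 and 0.39 in DPP, so only Mix replicate 1 lay below all 6. FOSL1, an AP-1 subunit, measured 2.497 and 3.07 CPM in Mix, 3.96 and 3.62 in DEP, 4.72 and 5.01 in DProP, 8.83 and 11.4 in DPP and 1.63 and 2.11 in vehicle, with Mix below all 6 and DPP highest (-1.04 ± 0.15 (SE), edgeR adjusted p = 0.00121). JUN, its partner, measured 171 and 186 CPM in Mix, 214 and 194 in DEP, 192 and 205 in DProP, 257 and 276 in DPP and 171 and 177 in vehicle and was lower by a smaller margin (-0.31 ± 0.06 (SE), adjusted p = 0.0048). FOSL1 kept its call with DPP left out of the average and JUN did not. The list's median distance to Mix was -0.07 for DEP, -0.14 for DProP and -0.44 for DPP, 1 lower call was made with DPP left out of the average, and 0 with 1 common mean.

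Antioxidant genes under NFE2L2, the factor that answers oxidative and electrophilic stress, were lower in 15 of 26 cases and higher in 0, with a median of -0.22. SRXN1, which restores oxidised peroxiredoxins, measured 36.8 and 36.9 CPM in Mix, 44.5 and 40.6 in DEP, 48.9 and 46.8 in DProP, 66.4 and 75.5 in DPP and 29.2 and 33.7 in vehicle and differed by -0.51 ± 0.07 (SE, edgeR adjusted p = 0.000894). Thioredoxin reductase TXNRD1 measured 201 and 193 CPM in Mix, 214 and 224 in DEP, 234 and 233 in DProP, 289.7 and 306 in DPP and 189 and 202 in vehicle (-0.33 ± 0.05 (SE), adjusted p = 0.00118), and malic enzyme ME1 measured 165 and 157 CPM in Mix, 195 and 189 in DEP, 234 and 217 in DProP, 239 and 275 in DPP and 229.6 and 205 in vehicle (-0.47 ± 0.07 (SE), adjusted p = 0.000736). In SRXN1, TXNRD1 and ME1 both Mix libraries were below all 6 single-compound libraries and DPP had the highest mean. GCLM, the modifier subunit of the glutathione synthesis enzyme, and the quinone reductase NQO1 were lower, at -0.51 and -0.36, and so was the haem-degrading HMOX1 (-0.52). The count was 8 without either Mix library, 8 with DPP left out of the average and 3 with 1 common mean.

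The promoters of 2 of these genes are shown because both carry an antioxidant response element, the site that NFE2L2 binds, searched as TGACNNNGC on both strands in the 250 bases before the RefSeq start (GRCh38.p14, each sequence 5′ to 3′ on the gene's strand, the match in capitals). TXNRD1 lies on the plus strand of chromosome 12 and its window is chr12:104215529-104215778; GCLM lies on the minus strand of chromosome 1 and its window is chr1:93909431-93909680.
TXNRD1: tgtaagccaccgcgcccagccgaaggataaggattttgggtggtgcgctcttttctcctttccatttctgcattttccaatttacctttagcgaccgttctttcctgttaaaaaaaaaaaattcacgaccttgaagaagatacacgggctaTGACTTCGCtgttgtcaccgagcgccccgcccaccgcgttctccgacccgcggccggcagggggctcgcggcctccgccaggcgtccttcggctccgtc
GCLM: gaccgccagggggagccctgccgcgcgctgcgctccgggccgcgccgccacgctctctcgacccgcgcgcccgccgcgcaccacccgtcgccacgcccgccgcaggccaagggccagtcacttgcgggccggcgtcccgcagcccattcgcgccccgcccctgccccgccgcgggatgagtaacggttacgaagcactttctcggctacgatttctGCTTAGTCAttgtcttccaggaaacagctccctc
The match begins 99 bases before the start in TXNRD1 and 34 bases before it in GCLM. Of the lower list members with a promoter in the table, 3 of 10 held the motif (30%), the third being ME1, and 1 of the 7 other members with one did (14.3%). The motif was in 11.8% of 12108 tested protein-coding promoters, so most of the lower members did not hold it in this window.

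Hypoxia and glycolysis genes were lower in 14 of 33 cases and higher in 3, with a median of -0.18. LDHA, the lactate dehydrogenase subunit, measured 30.2 and 35.9 CPM in Mix, 38.95 and 42.4 in DEP, 48.9 and 56.5 in DProP, 56.7 and 66.4 in DPP and 27.3 and 26.6 in vehicle. P4HA1, a collagen prolyl hydroxylase, measured 60.3 and 60.5 CPM in Mix, 76.04 and 76.4 in DEP, 105 and 91.7 in DProP, 95.6 and 113 in DPP and 45.6 and 45.5 in vehicle. In both, Mix was between vehicle and the lowest single compound, DEP, and DPP had the highest mean; the log2 fold changes were -0.63 ± 0.09 (SE) and -0.61 ± 0.07 (SE, edgeR adjusted p = 0.000895 and 0.000263). Hexokinase 2 (HK2), the entry step of glycolysis, was lower than the average (-0.56 ± 0.08 (SE)) but close to DEP, with a log2 difference of -0.06 (adjusted p = 0.795). ADM, the vasodilator peptide adrenomedullin, was lower as well (-0.90). The 3 higher members were ENO2 and ALDOC, glycolytic enzymes of neurons and astrocytes, and the carbonic anhydrase CA12, at 0.32, 0.49 and 0.28. The count of 14 became 4 with DPP left out of the average, 5 and 6 without Mix replicate 1 or 2, and 1 with 1 common mean.

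Targets of p53 and apoptosis genes were lower in 9 of 26 cases and higher in 0, with a median of -0.20. CDKN1A, the cyclin-dependent kinase inhibitor p21, measured 119 and 128 CPM in Mix, 157 and 146 in DEP, 151 and 149 in DProP, 189 and 195 in DPP and 111 and 112 in vehicle. Mix was below all 6 and slightly above vehicle, and the difference passed against each compound (-0.29, -0.28 and -0.63 from DEP, DProP and DPP); against the average it was -0.40 ± 0.05 (SE, edgeR adjusted p = 0.000355). The death receptor gene TNFRSF10B and the pro-apoptotic BCL2L11 were lower, at -0.36 and -0.32, and so was the DNA damage response gene GADD45A (-0.61). These 4 genes stayed past the threshold in every alternative apart from the 2-fold minimum. The list's count was 4 without Mix replicate 1.

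Of 44 cell cycle and DNA replication genes 11 were lower and 0 higher, with a median of -0.48, and the median distance was -0.08 from DEP, -0.86 from DProP and -0.56 from DPP. That DProP lay farther from Mix than DPP rested on 1 library: relative to each gene's mean over the 10 libraries, the list's median level was -0.02 in DProP replicate 1 and 0.98 in DProP replicate 2, against 0.21 and 0.23 in DPP and -0.37 and -0.21 in Mix (log2). TK1, the thymidine kinase of S phase, measured 0.396 and 0.351 CPM in Mix, 0.712 and 0.905 in DEP, 1.54 and 2.65 in DProP, 1.33 and 1.85 in DPP and 0.548 and 0.8104 in vehicle. Mix was below all single-compound libraries and below vehicle, at low absolute levels, with a log2 fold change of -1.89 ± 0.30 (SE, edgeR adjusted p = 0.00195). TYMS, which makes thymidylate, measured 11.2 and 13.96 CPM in Mix, 16.5 and 17.6 in DEP, 19.9 and 29.03 in DProP, 20.9 and 19.2 in DPP and 12.9 and 13.8 in vehicle and differed by -0.69 ± 0.14 (SE, adjusted p = 0.00698). The mitotic kinase AURKB measured 0.751 and 0.924 CPM in Mix, 1.24 and 0.9903 in DEP, 2.18 and 4.08 in DProP, 2.32 and 2.604 in DPP and 1.71 and 1.37 in vehicle (-1.29 ± 0.26 (SE), adjusted p = 0.00647), and PKMYT1, a kinase that restrains mitotic entry, was lower too (-1.81 ± 0.26 (SE)). DProP replicate 2 was higher than DProP replicate 1 in TK1, TYMS and AURKB, and the number of lower genes changed with it: 30 without DProP replicate 1 and 18 without DProP replicate 2. It was 3 and 5 without Mix replicate 1 or 2, and 3 with 1 common mean, so the count is poorly fixed. Cyclin D2 (CCND2) was called higher without DProP replicate 1 (0.51) and without DProP replicate 2 (0.83).

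The promoters of TYMS and of the cell cycle transcription factor E2F1 (-0.48 on the log2 scale) are shown because E2F proteins bind in front of many genes of this list. The windows are again the 250 bases before the RefSeq start on the gene's strand in GRCh38.p14: chr18:657403-657652 on the plus strand of chromosome 18 and chr20:33686386-33686635 on the minus strand of chromosome 20. Capitals mark matches on either strand to the E2F forms TTTGGCGC or TTTCCCGC and to the CCAAT box, which did not overlap.
TYMS: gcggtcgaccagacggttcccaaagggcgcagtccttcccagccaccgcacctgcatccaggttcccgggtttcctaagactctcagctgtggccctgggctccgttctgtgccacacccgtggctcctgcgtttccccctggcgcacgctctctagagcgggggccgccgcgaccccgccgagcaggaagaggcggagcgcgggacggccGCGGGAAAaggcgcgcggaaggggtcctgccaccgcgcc
E2F1: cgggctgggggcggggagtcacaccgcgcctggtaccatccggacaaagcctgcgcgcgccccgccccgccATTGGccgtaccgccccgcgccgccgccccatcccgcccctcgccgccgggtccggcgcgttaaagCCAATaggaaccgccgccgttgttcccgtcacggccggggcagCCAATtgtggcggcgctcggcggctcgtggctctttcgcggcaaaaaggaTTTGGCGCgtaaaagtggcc
TYMS holds 1 match, of the E2F type, and E2F1 holds 4 matches, of both types. An E2F form was found in 4 of 9 lower members with a promoter in the table (44.4%), in 8 of 26 other members (30.8%) and in 2.96% of the 12108 tested protein-coding promoters. The CCAAT box was found in 7 of 9 (77.8%), 20 of 26 (76.9%) and 34.6%, so it was about as frequent among the members that passed the test as among those that did not.

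HMGA2, a chromatin protein of proliferating embryonic cells that is also a growth gene, was lower in Mix and farthest from DPP. It measured 0.464 and 0.366 CPM in Mix, 0.823 and 0.679 in DEP, 1.23 and 1.13 in DProP, 3.66 and 5.91 in DPP and 0.923 and 0.882 in vehicle. DPP stood far above all other libraries and Mix was the lowest group, so that the log2 distance was -3.51 from DPP, -1.50 from DProP and -0.85 from DEP, the last not past the test (edgeR adjusted p = 0.136). Against the average it was -1.95 ± 0.25 (SE, adjusted p = 0.000474). The call of HMGA2 was kept with DPP left out of the average and lost with 1 common mean for the single compounds. Replication-dependent histone genes were lower in 6 of 52 cases and higher in 0, with a median of -0.38, and between 0 and 26 were lower when a library was left out; without DProP replicate 2, H4C4 and H4C5 were called higher. These genes are near copies of each other, so their counts are uncertain.

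Of 13 tested metallothionein and zinc export genes 2 were higher and 3 lower. Metallothioneins, small zinc-binding proteins, were lower in MT2A, MT1X and MT1G and higher in the brain form MT3 (0.90). MT2A measured 81.01 and 105 CPM in Mix, 167 and 159.6 in DEP, 118 and 107 in DProP, 189.6 and 237 in DPP and 69.1 and 92.9 in vehicle. Mix was at the vehicle level and below all 6 single-compound libraries, DPP and DEP being higher than DProP, with a log2 fold change of -0.76 ± 0.15 (SE, edgeR adjusted p = 0.0151). MT1X showed the same order, at 13.3 and 15.7 CPM in Mix, 27.1 and 26.4 in DEP, 17.4 and 15.9 in DProP, 30.04 and 31.7 in DPP and 11.2 and 14.1 in vehicle, and differed by -0.73 ± 0.10 (SE, adjusted p = 0.000634). These genes also share near-identical sequence, which leaves their separate counts uncertain. Ferritin heavy chain FTH1, which stores iron, measured 309 and 365 CPM in Mix, 453 and 435 in DEP, 449 and 393 in DProP, 511 and 581 in DPP and 826 and 924 in vehicle: the treated libraries were all below vehicle and Mix was lowest, at -0.47 ± 0.08 (SE) from the average (edgeR adjusted p = 0.00329). The calls for MT2A and FTH1 were not made without Mix replicate 1 or with 1 common mean for the single compounds. That for MT2A was also lost with DPP left out of the average. MT1G lost its call in 10 alternatives, among them DEP or DPP left out of the average and 1 common mean.

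For cholesterol synthesis genes the average hid opposite distances. Of 25 members 1 was higher (SREBF2, the master regulator) and 1 lower, with a median of -0.02, while 19 of the 25 differed among the compounds. Mix lay a median 0.21 above DEP and 0.25 below DProP on the log2 scale (a difference of -0.25), with -0.07 from DPP. SREBF2 measured 408 and 417 CPM in Mix, 353 and 368 in DEP, 377 and 389 in DProP, 373 and 342 in DPP and 401 and 433 in vehicle, Mix being above the 6 single-compound libraries and level with vehicle, and it differed by 0.19, 0.11 and 0.21 from DEP, DProP and DPP (edgeR adjusted p = 0.108, 0.358 and 0.039). The joint list of PPAR targets and fatty acid oxidation genes had 6 of 34 members higher and 0 lower. Its median was 0.04, and the sign changed under some alternatives. PPARs are receptors that some phthalate metabolites activate, and not every member of this list is a PPAR target. The lipid droplet protein PLIN2 was higher by 0.58 ± 0.09 (SE) and the brain form of carnitine palmitoyltransferase CPT1C by 0.78 ± 0.06 (SE).

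**Figure D4:**
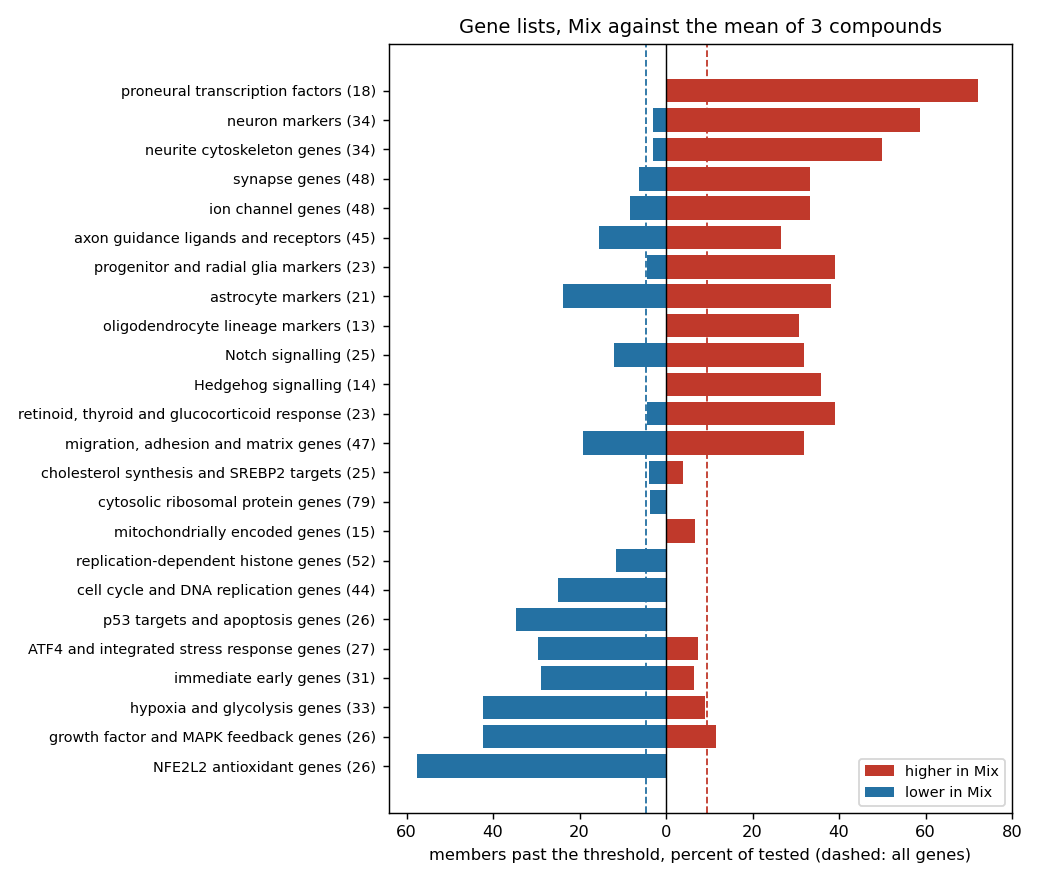
Percent of the tested members of 24 gene lists (number tested in brackets) that were higher in Mix (red, to the right) or lower (blue, to the left) than the average of the 3 compounds at an adjusted p of 0.05. Dashed lines mark the share of all tested genes, 9.40% higher and 4.69% lower; proneural factors reach farthest to the right and NFE2L2 genes farthest to the left.

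Some groups had a smaller share of called members than all tested genes, of which 14.1% were called (9.40% higher and 4.69% lower). Cytosolic ribosomal protein genes had 3 of 79 members lower and 0 higher (3.8% called), with a median of -0.02. Nuclear oxidative phosphorylation genes had 4 of 62 lower and 1 higher (8.06% called). Of 26 genes of the endoplasmic reticulum chaperone list 2 were higher and 1 lower (11.5% called), which is near the share of all tested genes. Shares called do not rank RNA classes by size of difference: the median was -0.14 over long non-coding RNAs and 0.02 over protein-coding genes. Count levels of the classes were not compared. Among 1875 long non-coding RNAs 20 were higher and 38 lower (3.09% called), and among 14905 protein-coding genes 17.5% were called. Among them MIR9-1HG, the host transcript of a miR-9 gene, a microRNA of neural progenitors and neurons, measured 134 and 133 CPM in Mix, 83.00 and 84.9 in DEP, 72.2 and 75.4 in DProP, 70.9 and 66.4 in DPP and 90.3 and 92.98 in vehicle. Its Mix libraries were above all 8 other libraries, and the log2 fold change of 0.83 ± 0.05 (SE) had the adjusted p of 3.08e-06 (edgeR).

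The median distance from Mix to each compound varied among the lists. Neuron markers lay 0.23, 0.47 and 0.68 from DEP, DProP and DPP, but neurite cytoskeleton genes lay 0.12, 0.23 and 0.18 and ion channel genes 0.23, 0.22 and 0.14, so neuronal lists had no common order. Antioxidant genes lay -0.14, -0.16 and -0.33 from the same compounds. The Hedgehog and axon guidance lists had distances of 0.11, 0.08 and 0.19 and of 0.10, 0.10 and 0.14. Measured from vehicle, which all these values share, the proneural medians were -0.68 in DEP, -1.04 in DProP, -1.52 in DPP and -0.34 in Mix, and the cell cycle medians were 0.04, 0.79, 0.48 and -0.05. For the antioxidant list they were -0.07, 0.01, 0.14 and -0.16, and for growth factor feedback genes 0.13, 0.23, 0.51 and -0.04. The Mix median was therefore nearer to vehicle than the DPP median for proneural, cell cycle and growth factor genes, but not for the antioxidant list. For cell cycle genes the DEP median (0.04) was about as near to vehicle as the Mix median (-0.05).

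**Figure D5:**
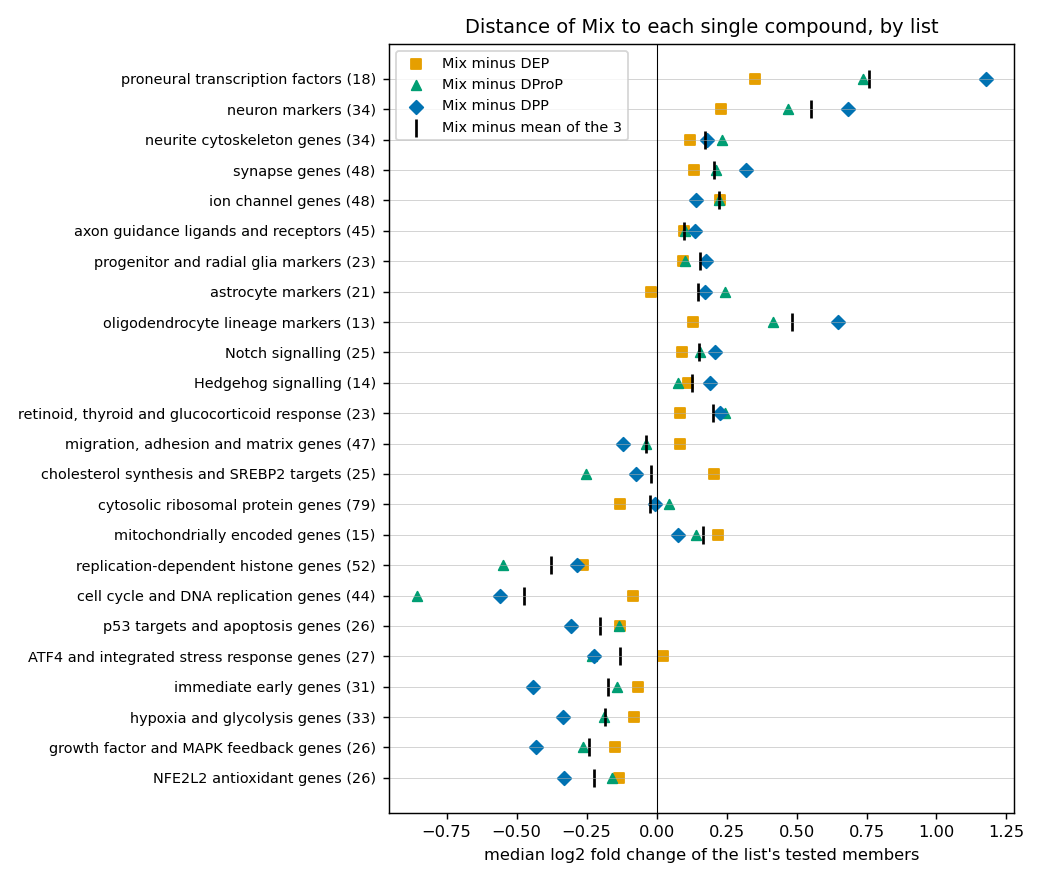
Median log2 fold change over the tested members of 24 gene lists (number in brackets) for Mix minus DEP (squares), Mix minus DProP (triangles) and Mix minus DPP (diamonds), with Mix minus the average as a bar. DPP lies farthest out for proneural, neuron marker, synapse, antioxidant, immediate early and growth factor genes, among others. DProP does for cell cycle and histone genes, where it rests on DProP replicate 2. There the median level relative to the mean of 10 libraries was 0.98 and 0.73, against -0.02 and -0.16 in DProP replicate 1. DProP is also farthest for the astrocyte, neurite cytoskeleton, retinoid, cholesterol and integrated stress response lists. DEP is farthest for the ion channel, ribosomal protein and mitochondrially encoded lists. The 3 comparisons share the Mix libraries.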

How the data were processed

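Sequencing counts of 10 libraries were used, 2 per group. The deposited table holds the authors' raw read counts by NCBI gene identifier, without normalisation. Trimmomatic 0.38, FastQC, HISAT2 2.1.0, StringTie 2.1.3b, R 4.3.2 and edgeR 4.0.9 and the build GRCh38 are named by the submitters' processing notes. Not given in the sources used here were the counting program, its strand setting and its treatment of multi-mapped reads. SureSelect RNA Direct was the library kit, per the labels' protocols. Of 46427 genes, 17765 had no count, and 44698 identifiers had a RefSeq entry (GRCh38.p14), the source of symbols, positions and promoters.

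The tests used edgeR 4.0.16 under R 4.3.3. By group, filterByExpr kept 19465 genes, and TMM factors scaled the libraries. The robust quasi-likelihood model gave each of the 5 groups its own mean, with 5 residual degrees of freedom. P-values were adjusted by Benjamini and Hochberg over all tested genes, and 0.05 was the threshold. A standard error is the log2 fold change divided by the square root of F. The common biological coefficient of variation came to 9.40%, and 95% intervals of the contrast extended a median 0.21 (log2) to each side. CPM values use the TMM factors. Because the contrast averages log2 means, a gene with no count in 1 group can have a large fold change: 45 called genes had no count in both libraries of a treated group, and no such fold is printed.

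The comparison and the 51 gene lists, written from general knowledge, were chosen with earlier results of these data known. Named genes passed the threshold with at least 1 CPM on average, carried a symbol and had both Mix libraries outside the 6 single-compound libraries (the 12 largest coding increases and decreases, and 4 and 4 non-coding), or were up to 4 members with the smallest p per list. Further list members were named after their values were seen, and some genes the rule names are not reported here. Over all tested genes, replicate numbers showed no common shift: between groups, deviations of replicates had correlations of -0.0465 to 0.0471 (10 pairs). An effect shared by part of the genes could go unseen in these values. Replicates differed by more than sampling noise (chi-square per degree of freedom from 10.9 to 19.9).

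The alternatives changed the scaling (relative log expression, or library size), the filter (none, or 1 CPM in 2 libraries), the tool (DESeq2 1.42.0, limma-voom 3.58.1) or the model (a replicate block, a 2-fold minimum, the 8 treated libraries, protein-coding genes, 1 mean for the single compounds, the average without each compound, each library left out). A fit without both vehicle libraries and DProP replicate 2 was added after the data were seen. On counts simulated for this contrast with shifts of 0.5, 1 and 2 (log2), edgeR called 35.7%, 71.2% and 88.4% of the 56, 73 and 69 shifted genes and 0.053% of 18877 others. In these counts the single compounds had equal means, and far fewer genes were shifted than were called in the data. The rates may therefore not carry over to the data.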

Additional observations from a re-analysis of the deposited data

How the results depend on the processing

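For the 203 genes past the threshold that the naming rule chose, not all of them printed here, the direction was the same in each of the 25 alternatives that gave it a value, while 65 of them were called in every alternative apart from the 2-fold minimum and 138 lost the call in at least 1; list members named besides these were not followed this way. For Mix against the average, 2741 genes became 297 with a 2-fold minimum, 1257 with 1 mean for the 6 single-compound libraries and 1397 with DPP left out of the average. Leaving out 1 library gave 905 (Mix replicate 1) to 2858 genes (vehicle replicate 1), with 1328 without Mix replicate 2 and 1812 without DEP replicate 1. Of the 905, 847 were among the 2741, in the same direction. The higher share of called genes was 66.7% in the fit described, 58.3% with library size alone, 57.2% with protein-coding genes alone and 77.3% without Mix replicate 1.

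Against DEP alone the count of 752 became 1368 with DESeq2, 99 with a 2-fold minimum and 36 (DEP replicate 1) to 829 with 1 library left out, including 87 without DEP replicate 2, 135 without Mix replicate 1 and 421 without Mix replicate 2. Against DProP, 1342 became 245 with a 2-fold minimum, 598 without both vehicle libraries and DProP replicate 2, and 401 (Mix replicate 1) to 1460 with 1 library left out, including 564 without DProP replicate 2. Against DPP, 3359 became 576 with a 2-fold minimum and 1541 (DPP replicate 2) to 3495 with 1 library left out. The 453 genes that differed among the compounds became 779 with the stricter filter, 1354 with DESeq2, 746 with protein-coding genes alone and 71 (DEP replicate 2) to 628 with 1 library left out. The causes were not tested.

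With the replicate number as a block, 2552 genes differed from the average, 2450 of them among the 2741, and 651, 1234 and 3147 differed from DEP, DProP and DPP. Among list counts of at least 4, the block changed by over 1.5 times only those of the integrated stress response (5 lower) and of histone genes (12 lower).

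With 2 libraries per group, small differences are at the limit of detection. Genes with a low level have wide intervals, as 124 of the 297 genes past 2-fold had a mean under 1 CPM. A call for Mix against the average does not show a difference from each compound.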

Other observations

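Other gene groups gave a few calls each. Among 24 complement and serpin genes 6 were higher and 2 lower, with a median of 0.03; besides SERPING1 the higher members included the acute phase inhibitor SERPINA3 (log2 fold change 1.69) and the near-identical complement genes C4A and C4B (0.84 and 0.88), whose reads the counting may split. Of the lysosome and autophagy genes 7 of 30 were lower and 0 higher, with a median of -0.10, among them the saposin precursor PSAP (-0.27). Without Mix replicate 1 that count was 1. Insulin-like growth factor binding genes split, with IGFBP4 and IGFBPL1 higher (1.22 and 0.82) and IGFBP3 lower (-0.71). The cholesterol efflux transporters of the LXR target list, ABCG1 and ABCG4, were higher (1.05 and 0.78). ABCG1 in Mix overlapped DEP (6.17 and 6.39 against 5.09 and 7.37 CPM, a log2 difference of 0.01), and its call was lost without either Mix library, with DPP left out of the average and with 1 common mean for the single compounds. The call of ABCG4 was lost without DEP replicate 1 or Mix replicate 2, with DPP left out and with 1 common mean. SMPDL3A of the same list was lower (-0.49), and the list's median was -0.04. All values are from the edgeR fit described above.

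Over 14821 protein-coding genes the log2 difference between Mix and the average had a Spearman's rho of 0.0276 with GC content and 0.111 with transcript length, given as a description across genes, which are not independent replicates. Higher genes had a median transcript length of 4507.5 bases and lower genes one of 3766.5, against 3659 over all.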
